A study of Homo sapiens with 8 samples.

Results

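Cullin-RING ligases and deubiquitinases put ubiquitin on proteins and take it off again, and transcripts of many of their genes were recovered by QKI7 immunoprecipitation in HepG2 cells. The genes described here are those whose name in the deposited peak lists begins with FBXO, FBXL, FBXW, KLHL, CUL or USP followed by a digit. The rule found 90 of the 6520 genes with a peak, namely 53 cullins and substrate receptors (4 CUL, 19 FBXO, 9 FBXL, 4 FBXW and 17 KLHL genes) and 37 USP genes. Together they held 582 of 42083 peaks. The name FBXL21 is now FBXL21P, a transcribed pseudogene in RefSeq, and the other 89 names are current symbols. USP6NL matches the rule by its letters but encodes a GTPase-activating protein of Rab GTPases, not a deubiquitinase.

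HepG2 is a human liver cancer line. All cells carried Cas9 and a lentiviral 3 x Flag-QKI7 construct, so that the bound protein was the overexpressed, tagged QKI7 isoform of Quaking, and the cells kept for the experiment were GFP-positive. They received a guide against METTL1 (sgMETTL1), the methyltransferase that places 7-methylguanosine on RNA, or a control guide (sgNS). After UV cross-linking and sonication, RNA was recovered with a Flag antibody (IP) and sequenced beside its input, giving 8 samples in 4 groups of 2. The labels name no clones, nor whether a replicate is a culture of its own. The p-values here therefore rest on the spread among these libraries, which may be only technical. The study asked whether METTL1 affects the binding of QKI7 to its target transcripts.

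A cullin is the scaffold of a ubiquitin ligase. It carries a RING protein at its C-terminal end and, through an adaptor, an exchangeable receptor that selects the protein to be marked. F-box proteins (FBXO, FBXL with leucine-rich repeats, FBXW with WD40 repeats) join CUL1 through SKP1, and KLHL proteins, with a BTB domain and Kelch repeats, join CUL3 directly. Ubiquitin-specific proteases (USP) are the largest family of deubiquitinases, which cut ubiquitin from proteins. QKI binds RNA through a KH-type domain, often in 3' untranslated regions.

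Each peak list compares 1 IP with its own input, so each guide had 2 lists. They held 10095 and 9388 peaks with sgMETTL1, against 11562 and 11038 with sgNS. The fold of a peak is the authors' ratio of IP over input and its p-value is theirs too. No source gives the reads behind a peak or the scale between lists, so the depth is unknown and folds were compared by rank. The percentile of a gene is the rank of its strongest fold among all genes of that list, where 0 is the strongest. METTL1 and WDR4 had 0 peaks, so the lists hold no check of the knockout. Of 10 hepatocyte markers 6 had a peak (ALB, APOB, SERPINA1, HNF4A and FGB among them), and of 7 markers of blood, stromal and endothelial cells 1 had a peak (LYZ). The hepatocyte markers AFP, APOA1, TTR and TF had none. In bulk RNA, fewer cells with a transcript and less bound RNA per cell cannot be told apart.

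USP genes were listed more often than the receptors but, by the median over all receptors, ranked lower once listed. Leaving out the repeated USP17L copies, 37 of 52 protein-coding USP genes of RefSeq had a peak in any list (71.2%), as did 52 of 108 protein-coding cullin and receptor genes (48.1%), and 6473 of all 20056 protein-coding genes (32.3%). These shares take no account of how strongly each gene is expressed in HepG2. Of the members with a peak, 33 of 53 receptors (62.3%) and 21 of 37 USP genes (56.8%) were in all 4 lists, against 4150 of 6520 genes (63.7%). A single list held 11 receptors, 7 USP genes and 1011 of all genes (20.8, 18.9 and 15.5%).

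By the rank of the strongest fold, the KLHL genes stood highest. Their median percentile was 19.6 and 30.8 with sgMETTL1, against 17.1 and 19.7 with sgNS. The USP genes had medians of 63.6 and 61.3 with sgMETTL1, against 58.7 and 59.3 with sgNS. F-box genes pooled over the 3 kinds lay between, at 43.4 and 41.5 with sgMETTL1, against 46.8 and 46.5 with sgNS. The few FBXW genes alone had 28.7 and 34.6 with sgMETTL1, against 73.3 and 52.4 with sgNS. CUL genes had 70.1 and 19.5 with sgMETTL1, against 86.9 and 82 with sgNS, and the 19.5 was CUL2 alone. These small families thus ranked weaker than the USP genes in some lists. The median over all genes is close to 50 in every list by construction. The order of KLHL, pooled F-box and USP genes was thus the same in every list, while each of these groups spread over most of the range. In median fold, KLHL genes had 20.9 and 12.7 with sgMETTL1, against 23.0 and 20.0 with sgNS, and USP genes had 4.81 and 4.89 with sgMETTL1, against 5.98 and 5.62 with sgNS. These differences between families describe genes of the same libraries and were not tested. Several of the KLHL folds were coarse, in a sense given below.

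**Figure D1:**
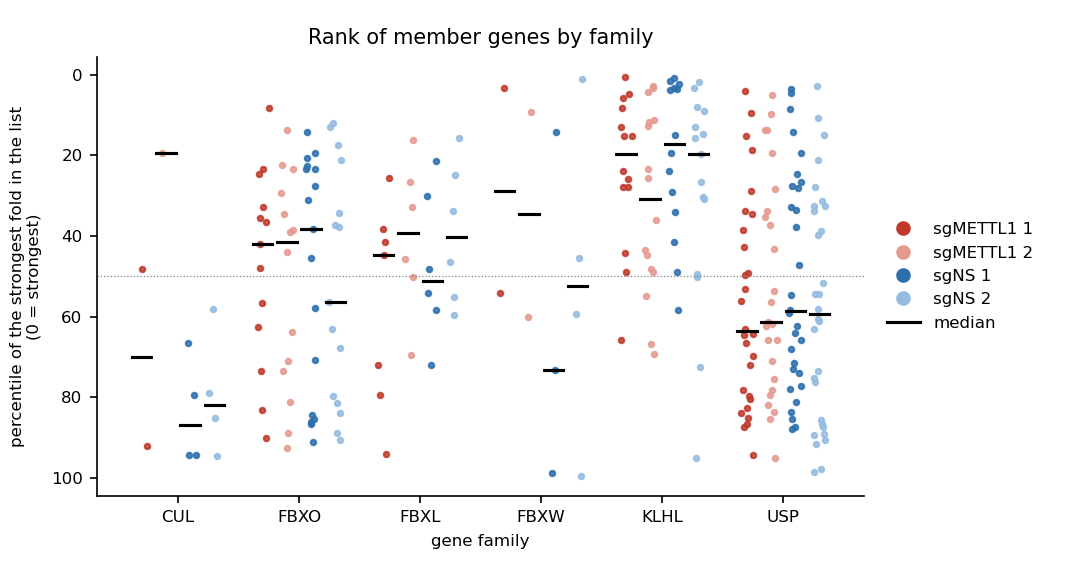
Percentile of the strongest fold of each member gene (y axis, 0 is strongest, axis runs downwards) by gene family (x axis) in the sgMETTL1 and sgNS lists. Points are genes with a peak, black bars are medians and the dotted line is the 50th percentile. KLHL medians lie between 17.1 and 30.8 and USP medians between 58.7 and 63.6.

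The cullin scaffolds themselves were unevenly listed. CUL1, CUL5, CUL7 and CUL9 had no peak in any list, and the other 4 were in both sgNS lists. CUL2, the scaffold of the VHL ligase, had a fold of 19.4 in replicate 2 of sgMETTL1 and no peak in replicate 1, against 2.01 and 5.81 with sgNS. These folds did not come from a common place: the sgMETTL1 peak of 19.4 (-log10 p 3.26) shared its site with the 5.81 peak of sgNS replicate 2, and the peak of sgNS replicate 1 lay elsewhere. CUL3, the scaffold of KLHL ligases, had 7.24 in replicate 1 of sgMETTL1 and no peak in replicate 2, against 4.88 and 2.75 with sgNS (chromosome 2, 224473236 to 224473475, minus strand, GRCh38 as for all positions). CUL4A had no peak with sgMETTL1 and folds of 2.01 and 3.30 with sgNS (chromosome 13, 113264479 to 113264659). CUL4B had 2.29 in replicate 1 of sgMETTL1 alone, against 3.39 and 1.96 with sgNS. These folds came from different sites, and the sites of 3.39 and 1.96 had no peak with sgMETTL1. At the CUL4B site found with both guides, replicate 1 of sgMETTL1 had 2.17 and replicate 1 of sgNS had 2.07. No cullin was in both sgMETTL1 lists. The strongest sgMETTL1 folds of CUL2 and CUL3 were above both sgNS folds, and that of CUL4B lay between them, each from 1 list. For CUL2 and CUL4B, unlike CUL3, the folds so compared did not all share a site.

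Among the F-box genes, FBXW11 ranked highest. It encodes beta-TrCP2, the receptor that marks beta-catenin and I-kappa-B for degradation. Its single site (chromosome 5, 171861552 to 171863525, minus strand) had folds of 61.0 and 31.6 with sgMETTL1, against 25.5 and 109 with sgNS and the guides overlapped. Its -log10 p was 231 and 241 with sgMETTL1, against 469 and 429 with sgNS. Within the FBXO genes of all 4 lists, FBXO9 ranked first by mean percentile. It had 36.6 and 25.0 with sgMETTL1, against 18.5 and 19.0 with sgNS, higher in both sgMETTL1 lists. These folds came from different sites. The FBXO9 site of all 4 lists (chromosome 6, 53100276 to 53100693) had 36.6 and 23.6 with sgMETTL1, against 9.72 and 19.0 with sgNS. Its -log10 p was lower with sgMETTL1, at 10.6 and 7.85, against 11.4 and 15.2 with sgNS. FBXO11, the receptor of the repressor BCL6, had 17.9 and 16.7 with sgMETTL1, against 18.4 and 25.7 with sgNS (chromosome 2, 47806920 to 47807308, minus strand). By percentile the guides overlapped, at 23.5 and 23.4 with sgMETTL1, against 23.4 and 13 with sgNS. FBXO34 had 16.8 and 16.9 with sgMETTL1, against 19.8 and 21.5 with sgNS at its main site (chromosome 14, 55352954 to 55353611). FBXO38 had 10.4 and 9.14 with sgMETTL1, against 10.8 and 27.5 with sgNS. FBXO34 ranked lower in both sgMETTL1 lists. In FBXO38 the guides overlapped by percentile, at 36.6 and 39.1 with sgMETTL1, against 38.3 and 12.1 with sgNS.

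Of the FBXL genes, FBXL20 had folds of 15.7 and 11.1 with sgMETTL1, against 14.2 and 11.8 with sgNS. FBXL4, a mitochondrial F-box protein, had 8.87 and 7.40 with sgMETTL1, against 6.68 and 7.88 with sgNS. FBXL17, which sorts out misassembled BTB dimers, had 8.0 and 6.48 with sgMETTL1, against 7.94 and 5.59 with sgNS. By percentile the guides overlapped in FBXL20 and FBXL17. FBXL4 ranked slightly higher in both sgMETTL1 lists, at 41.4 and 45.6 with sgMETTL1, against 54.2 and 46.5 with sgNS, while its folds overlapped.

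KLHL9 was the best-ranked member of all. It is a CUL3 receptor that acts on Aurora B in mitosis. Its site on chromosome 9 (21331019 to 21331526, minus strand) had folds of 133 and 57.3 with sgMETTL1, against 77.2 and 74.5 with sgNS, which placed the gene at the percentiles 0.57 and 3.39 with sgMETTL1, against 1.59 and 1.92 with sgNS. The guides overlapped, the widest gap being between the sgMETTL1 replicates. A neighbouring site held 19.3 and 31.3 with sgMETTL1, against 21.3 and 21.5 with sgNS. KLHL20, the receptor of the kinase DAPK, had 46.1 and 49.7 with sgMETTL1, against 56.7 and 59 with sgNS (chromosome 1, 173782218 to 173786315). KLHL20 was lower in both sgMETTL1 lists. KLHL15, which marks a regulatory subunit of protein phosphatase 2A, had 36.6 and 61.1 with sgMETTL1, against 67.1 and 35.9 with sgNS. Its 36.6 came from a second site, and at the site of the other 3 values (chromosome X, 23985389 to 23985897, minus strand) that list had 21.3. KLHL28 had 51.8 and 25.9 with sgMETTL1, against 53.5 and 25.7 with sgNS. The guides overlapped in KLHL15 and KLHL28. KLHL36, chosen after its values were seen, had 14.2 and 15.3 with sgMETTL1, against 113 and 13.4 with sgNS, where 1 list stood far from the other 3.

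In the USP group, USP33 ranked highest. It was first described as a partner of the VHL protein, and its 3' site (chromosome 1, 77695989 to 77697032, minus strand) had folds of 55.5 and 45.5 with sgMETTL1, against 55.4 and 63.0 with sgNS. USP53, long classed among the USPs without proteolytic activity, had 33.5 and 30.5 with sgMETTL1, against 49.4 and 19.0 with sgNS. The guides overlapped in USP53. USP33 ranked slightly lower with sgMETTL1, at percentiles 4.09 and 4.99 with sgMETTL1, against 3.65 and 2.72 with sgNS, while its folds overlapped. USP32 had 11.3 and 13.5 with sgMETTL1, against 35.5 and 23.6 with sgNS (chromosome 17, 60177330 to 60177928, minus strand). USP12, which works with the WD40 protein WDR48, had 24.4 and 25.0 with sgMETTL1, against 12.8 and 9.93 with sgNS. USP32 was lower and USP12 higher in both sgMETTL1 lists. USP6NL had 13.7 and 10.2 with sgMETTL1, against 11.0 and 9.61 with sgNS, folds that overlapped although its percentiles did not (28.9 and 35.4 with sgMETTL1, against 37.8 and 39.7 with sgNS). USP54, like USP53 an atypical member, had 2.83 and 4.79 with sgMETTL1, against 4.27 and 2.43 with sgNS. USP39, a splicing factor without protease activity, had no peak.

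**Figure D2:**
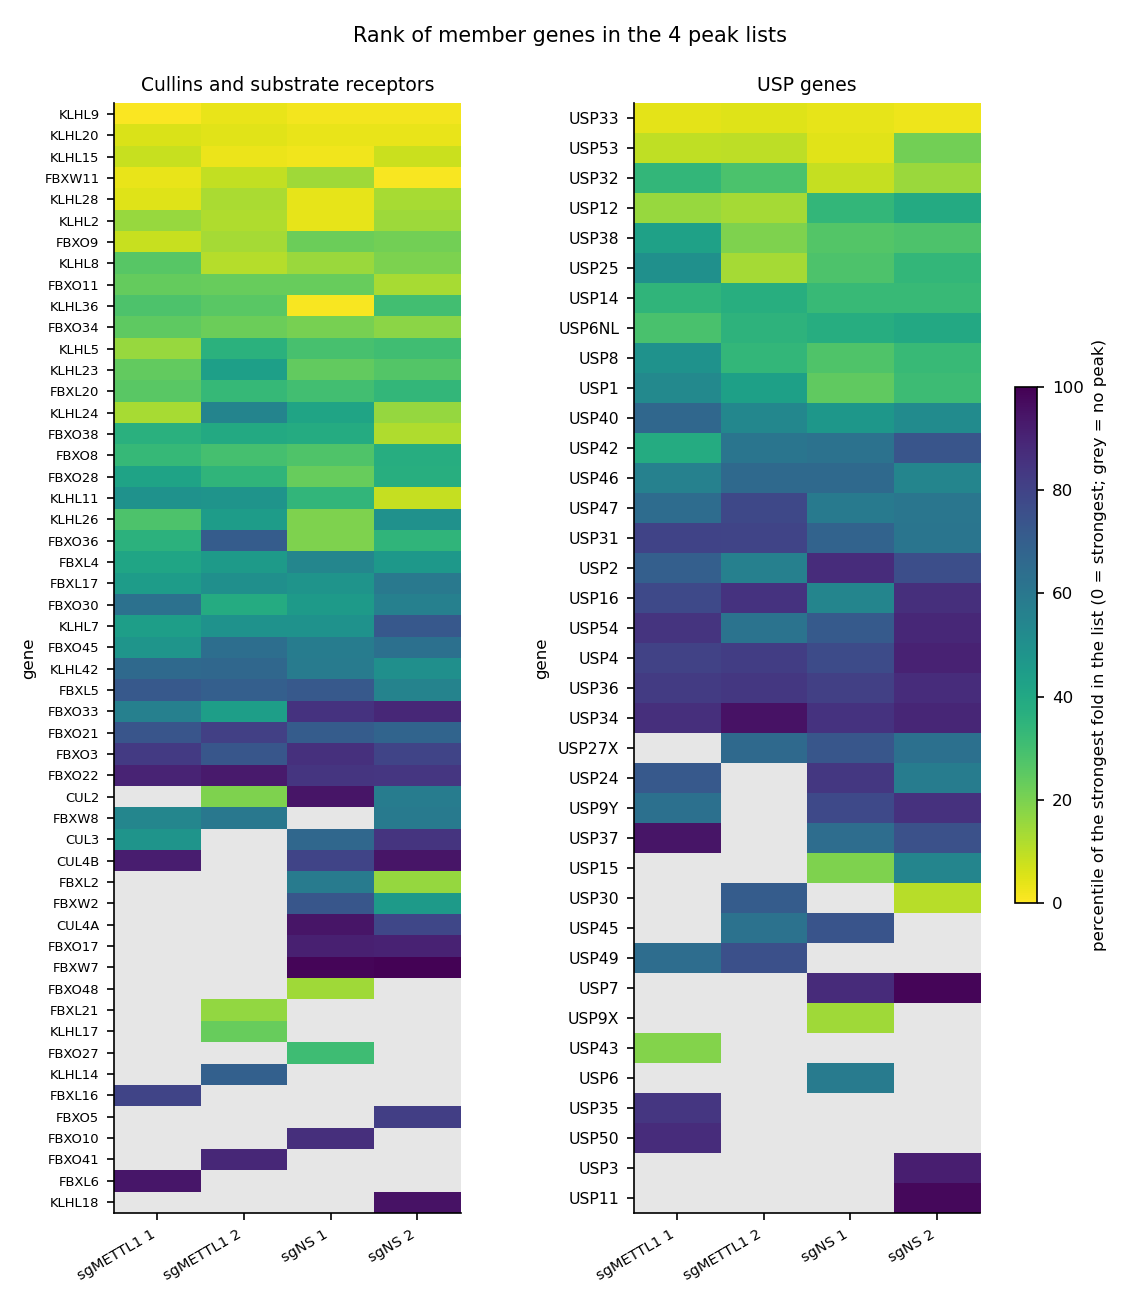
Percentile of the strongest fold (colour, 0 is strongest, grey is no peak) for the cullin and receptor genes (left) and the USP genes (right), in rows, in the 4 lists (columns). Rows are ordered by the number of lists and then by mean percentile, so KLHL9 and USP33 stand at the top and genes of 1 list at the bottom.

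The receptors and USP genes also differed in how their peaks were built. A peak can join several exon blocks, as the lists write it. Of the receptors' 361 peaks 5 joined more than 1 block (1.39%), whereas 31 of 221 USP peaks did (14.0%), against 9.26% of all peaks. The receptors with such a peak were CUL2, FBXL4, FBXO8, FBXO41 and KLHL20, and 12 USP genes had one. The one with the smallest p was in USP14, a deubiquitinase of the proteasome: a peak of 4 blocks (chromosome 18, 204609 to 211506) with folds of 11.1 and 9.70 with sgMETTL1, against 13.3 and 12.3 with sgNS, and -log10 p of 588 and 555 with sgMETTL1, against 991 and 891 with sgNS, the largest of any member site in all 4 lists. USP34, chosen after its values were seen, held a site of 5 blocks in the middle of the gene (chromosome 2, 61348406 to 61350676) at 1.66 and 1.71 with sgMETTL1, against 1.97 and 2.06 with sgNS. The number of exons per gene was not used here, and its part in this difference was not tested.

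Member peaks lay along their genes much as the peaks of all genes did. Of 581 member peaks inside an annotated gene, 437 were centred in the final 10% of the span (75.2%), namely 72.5% for receptors and 79.6% for USP genes, against 74.3% of all placed peaks. KLHL genes had the lowest share of any family (62.1%), against 96.5% for FBXL genes and 100% for the 17 peaks of CUL genes. The KLHL value rested on KLHL5: all its 26 peaks lay outside the final 10%, and without it the share was 95 of 127 (74.8%), a value worked out after seeing the data. The sites of KLHL9 were centred at 72.6 and 53.2% of its span, and the last site of KLHL5 was centred 17017 bases before the annotated end. The members with most peaks over the 4 lists were KLHL5 (26), FBXO28 (22), KLHL15 and USP14 (21 each) and FBXL20 (17).

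With the METTL1 guide, 7 of the 90 members were lost, meaning listed in both replicates with sgNS and never with sgMETTL1 (7.78%, against 4.63% of all genes). They were CUL4A, FBXL2, FBXO17, FBXW2, FBXW7, USP7 and USP15, so 5 of 53 receptors and 2 of 37 USP genes. Only 1 member was gained in the same sense (1.11%, against 1.52% of all genes), USP49, a histone H2B deubiquitinase, with folds of 4.74 and 3.47 with sgMETTL1. With 2 lists against 2 an exact test of presence cannot go below p = 0.33, and none was made.

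Of the lost genes, CUL4A, FBXO17, FBXW7 and USP7 were at percentile 78.9 or weaker in both sgNS lists. FBXW7, the tumour suppressor receptor that marks cyclin E, MYC and NOTCH, had no peak with sgMETTL1 and folds of 1.5 and 1.4 with sgNS (chromosome 4, 152411547 to 152411697), at the percentiles 98.8 and 99.5. USP7, which stabilises MDM2 and p53, had no peak with sgMETTL1 and 2.63 and 1.54 with sgNS. FBXW2 had 4.05 and 8.15 with sgNS, FBXO17 had 2.35 and 2.30, FBXL2 had 6.02 and 23.2 and USP15 had 20.8 and 6.34, all without a peak with sgMETTL1. The -log10 p with sgNS was low in FBXL2 (3.95 and 4.51), USP15 (4.13 and 3.28) and FBXW2 (4.16 and 7.73). The median over all peaks was 10.8 in each sgNS list. In 5 of the 7 genes both sgNS lists shared a site. In FBXO17 and USP15 the sgNS peaks lay at different places, so no site was lost there. Leaving out a list eases the rule, so all 7 stay lost by construction. The count was 12 without replicate 1 of sgMETTL1 (601 of all genes), 9 without its replicate 2 (523), 11 without replicate 1 of sgNS (504) and 12 without its replicate 2 (647). With equal numbers of peaks ranked by fold, 4 members and 205 of all genes were lost, and FBXW7 was not among them.

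Peaks of the same gene and strand that shared at least 1 exon base were joined into sites, which gave 206 member sites out of 14518. Of these, 79 were in all 4 lists (38.3%, against 41.3% of all sites), 51 in receptors and 28 in USP genes. A site was lost in 18 cases (8.74%, against 7.42% of all sites) and gained in 1 (0.485%, against 1.21%). Of the lost sites, 12 belonged to 9 genes that still had a peak with sgMETTL1. USP46 and KLHL11 were picked from these 9 after their values were seen. In USP46, a partner of WDR48 like USP12, sites at 4.26 and 2.66 and at 3.06 and 4.07 with sgNS had no peak with sgMETTL1, while the site next to them held 5.82 and 4.36 with sgMETTL1, against 4.96 and 6.34 with sgNS. KLHL11 lost a site of 2.35 and 3.63 with sgNS beside its main one, which had 6.95 and 6.82 with sgMETTL1, against 12.6 and 33.8 with sgNS.

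Fold ranks were then compared at the 54 members of all 4 lists, 33 receptors and 21 USP genes. The other 36 members, 18 in 1 list, 10 in 2 and 8 in 3, have no value here. Among those of 1 list was USP9X, chosen after its values were seen, with 5 peaks in replicate 1 of sgNS (strongest fold 25.5) and none elsewhere. The strongest folds of a list were ranked among the 4150 genes of all 4 lists and turned into normal scores. A positive difference means a stronger rank with sgMETTL1. By limma with Benjamini-Hochberg adjustment over 4150 genes, 0 members and 0 genes in all (0%) differed at an FDR of 5%, the smallest adjusted p of a member being 0.325. At an unadjusted p under 0.05, 1 member was lower (4.72% of all genes) and 3 were higher (5.11% of all genes). The median difference was -0.05 for receptors and -0.03 for USP genes, against -0.02 for all genes.

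FBXO33 had the smallest p. It encodes an F-box protein reported to target the Y-box protein YB-1. Its strongest folds were 5.74 and 7.77 with sgMETTL1, against 2.82 and 2.44 with sgNS, a score difference of 1.36 (SE 0.221, unadjusted p = 0.00204, limma's adjusted p = 0.325). The 7.77 of sgMETTL1 replicate 2 came from another place, a peak past the gene's annotated end that no other list held. At the matched site (chromosome 14, 39398588 to 39399157, minus strand) the folds were 5.74 and 5.55 with sgMETTL1, against 2.82 and 2.44 with sgNS. Both replicates of each guide lay close together there and the guides did not overlap. The score difference at this site was 1.19 (SE 0.184, unadjusted p = 0.00129, limma's adjusted p over 6003 sites = 0.333), also the smallest p among member sites.

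USP12 came next, with a score difference of 0.77 at the gene (SE 0.184, unadjusted p = 0.00989, limma's adjusted p = 0.352) and 0.71 at its last site (chromosome 13, 27066150 to 27067044, minus strand). The -log10 p of that site was lower with sgMETTL1, at 38.6 and 39.0 with sgMETTL1, against 71.4 and 73.8 with sgNS. Ranked by p in place of the fold, the difference was 0.07 at the gene and 0.09 at the site (unadjusted p by limma 0.378 and 0.369), and with the mean of the gene's peaks it was 0.50 (unadjusted p by limma 0.0930). USP2, which acts on cyclin D1 and MDM2, had 4.16 and 5.55 with sgMETTL1, against 2.66 and 3.59 with sgNS (score difference 0.77, limma's adjusted p = 0.470). No USP2 site was in all 4 lists, so the gene's value joined different places. USP32 went the other way (score difference -0.62, limma's adjusted p = 0.470). FBXO9 and USP1, the enzyme that clears ubiquitin from FANCD2 and PCNA, followed at 0.50 and -0.50 with unadjusted p of 0.0555 and 0.0654. For USP1 the folds were 6.15 and 7.93 with sgMETTL1, against 17.4 and 12.8 with sgNS. USP32 and USP1 changed sign when the mean of a gene's peaks was ranked in place of the strongest (0.38 and 0.57).

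Over all 79 matched member sites limma called 0 at an FDR of 5%, as it did over all 6003 sites (0%). At an unadjusted p under 0.05, 3 member sites were lower (5.05% of all sites) and 4 higher (5.41% of all sites). The higher ones were in FBXO33, USP12, FBXO28 and FBXL17, the last at 8.0 and 6.25 with sgMETTL1, against 5.92 and 3.76 with sgNS. The lower ones were a site at the 3' end of USP14, a small site of FBXO34 and the strongest site of USP32. The USP14 site (chromosome 18, 213292 to 213739) had folds of 2.78 and 2.03 with sgMETTL1, against 5.45 and 5.06 with sgNS (score difference -0.89, SE 0.222, limma's adjusted p = 0.396). The site just upstream of it had 4.72 and 5.30 with sgMETTL1, against 5.83 and 5.77 with sgNS, and the folds of the peak of 4 blocks described above were also lower in both sgMETTL1 lists. Among all peaks of a list, both also ranked weaker in both sgMETTL1 lists. The upstream site was at percentiles 47.9 and 42.7 with sgMETTL1, against 40.1 and 38.9 with sgNS. The peak of 4 blocks was at 21.2 and 24.8 with sgMETTL1, against 19.5 and 19 with sgNS. Ranked only among the 6003 sites of all 4 lists, both were nearly level. The score difference was 0.0279 at the upstream site and -0.0353 at the peak of 4 blocks (unadjusted p by limma 0.887 and 0.85). In FBXO34 the weak site (chromosome 14, 55352416 to 55352715) had 1.92 and 1.66 with sgMETTL1, against 2.61 and 3.35 with sgNS (score difference -0.72, limma's adjusted p = 0.425). FBXO28 held a site on the higher side (chromosome 1, 224160047 to 224160375) at 3.75 and 2.88 with sgMETTL1, against 2.59 and 2.32 with sgNS (score difference 0.67, limma's adjusted p = 0.422), while its 2 upstream main sites had 6.72 and 6.98 with sgMETTL1, against 9.92 and 10.0 with sgNS, and 8.61 and 10.5 with sgMETTL1, against 18.4 and 10.5 with sgNS. Sites of FBXO28 thus did not all differ in the same direction between guides.

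**Figure D3:**
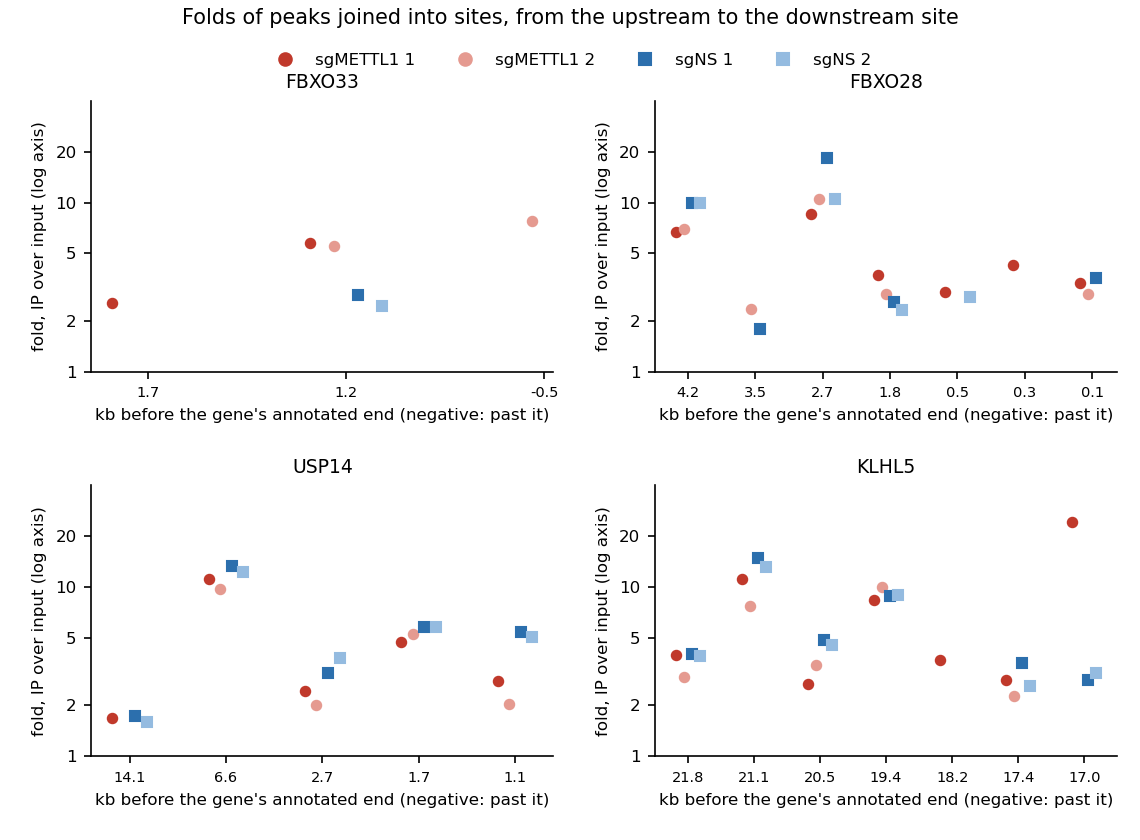
Authors' fold of IP over input (y axis, log scale) at each site of FBXO33, FBXO28, USP14 and KLHL5 (x axis, kilobases from the site's centre to the gene's annotated end, sites evenly spaced and running downstream to the right). Circles are the sgMETTL1 lists and squares the sgNS lists. At the matched FBXO33 site 5.74 and 5.55 lie above 2.82 and 2.44, and at the last USP14 site 2.78 and 2.03 lie below 5.45 and 5.06.

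**Figure D4:**
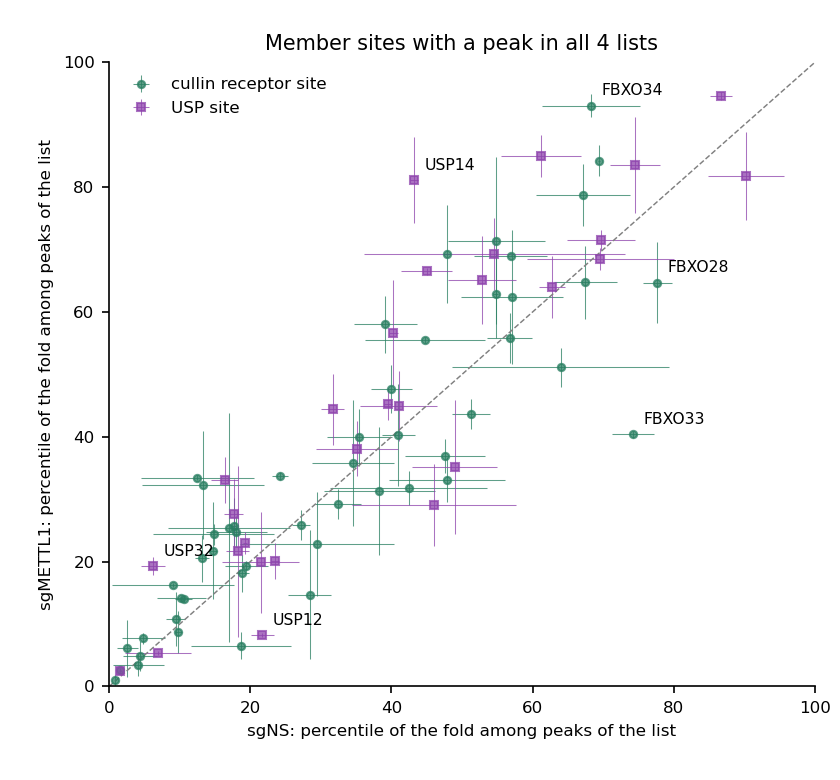
Percentile of the fold among all peaks of a list (0 is strongest) for the 79 member sites of all 4 lists, with sgMETTL1 on the y axis and sgNS on the x axis. Points are means of 2 lists, bars run from the lower to the higher list, circles are receptor sites, squares USP sites, and the 6 sites with the smallest unadjusted p are named. Most points lie near the dashed line of equal percentiles.

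The authors' p-values were weaker with sgMETTL1 at most sites, in the members as in all genes. At 59 of the 79 member sites the -log10 p was lower in both sgMETTL1 lists than in both sgNS lists (74.7%, against 76.2% of all sites), in 37 of 51 receptor sites and 22 of 28 USP sites. It was higher in both sgMETTL1 lists at 2 (2.53%, against 3.45% of all sites). The median ratio of the mean -log10 p, sgMETTL1 over sgNS, was 0.479 for members and 0.503 for all sites. A p-value also depends on the number of reads, which is not known here, and its part was not tested.

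Against this background a few sites stood out at either end, chosen after their values were seen. The 2 member sites with a higher -log10 p in both sgMETTL1 lists were the FBXO33 site (21.1 and 23.7 with sgMETTL1, against 15.7 and 8.81 with sgNS) and a site of 3 blocks in USP42, a deubiquitinase of p53, with 22.9 and 10.1 with sgMETTL1, against 8.35 and 8.42 with sgNS, and folds of 9.71 and 4.89 with sgMETTL1, against 5.4 and 3.86 with sgNS. The lowest ratio was 0.123, at a site of USP31 (chromosome 16, 23067220 to 23068149, minus strand) with a -log10 p of 18.4 and 17.0 with sgMETTL1, against 141 and 147 with sgNS. The USP31 peak was narrower with sgMETTL1, at 540 and 600 bases, against 930 and 630 with sgNS, and its folds were 3.23 and 3.11 with sgMETTL1, against 4.65 and 5.36 with sgNS. Next came the USP14 site at the 3' end (0.161) and the weak FBXO34 site (0.183), both described above. KLHL23 followed with a ratio of 0.203 over a peak of nearly constant width, with a -log10 p of 89.5 and 88.1 with sgMETTL1, against 490 and 384 with sgNS. Its folds were 17.4 and 7.89 with sgMETTL1, against 17.9 and 15.2 with sgNS.

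**Figure D5:**
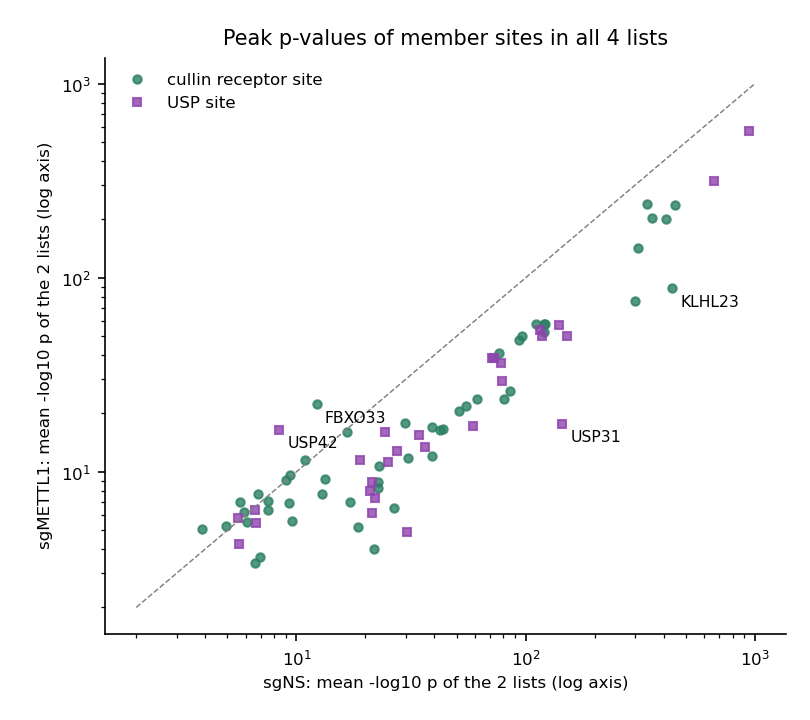
Mean -log10 p of the 2 lists of each guide at the 79 member sites of all 4 lists, with sgMETTL1 on the y axis and sgNS on the x axis (both log scales). Most sites lie below the dashed line of equality, FBXO33 and USP42 lie above it, and USP31 and KLHL23 lie farthest below among the named sites.

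Some member folds were coarse. The strongest folds of 11 and 13 members with sgMETTL1, and of 12 and 11 with sgNS, were whole multiples, to within 0.5 of the last printed digit, of a per-list step (3.048 and 2.776 with sgMETTL1, against 2.315 and 2.113 with sgNS). This was 14.9 to 20.3% of the members of a list, against 16.9 to 18.7% of all its genes, and against 1.32 to 1.77% of genes for a step 7% larger. All 4 folds of FBXO9 were of this kind, at 12 and 9 steps with sgMETTL1, against 8 and 9 with sgNS. So were those of KLHL15, at 12 and 22 with sgMETTL1, against 29 and 17 with sgNS. FBXW11 stood at 20 steps in replicate 1 of sgMETTL1 and at 11 in replicate 1 of sgNS. USP53 stood at 11 and 11 with sgMETTL1 and at 9 in replicate 2 of sgNS. The CUL2 fold of 19.4 in replicate 2 of sgMETTL1 stood at 7 steps. The FBXO38 fold of 27.5 in replicate 2 of sgNS stood at 13. Other KLHL folds of this kind, chosen after their values were seen, were those of KLHL2, KLHL5, KLHL24 and KLHL28 in replicate 1 of sgMETTL1. In replicate 2 of sgMETTL1 they were those of KLHL2 and KLHL17. With sgNS they were those of KLHL2, KLHL26 and KLHL36 in replicate 1, and of KLHL11 and KLHL24 in replicate 2. The KLHL36 fold of 113 is printed without decimals, so its match to a step of 2.315 carries little weight. The part of such folds in the rank of the KLHL genes was not tested. Both sgMETTL1 folds of USP12 stood at 8 and 9 steps, and the fold of 24.4 was listed in the same list for KLHL2, KLHL5 and USP12. Of the lost members, USP15 stood at 9 and 3 steps with sgNS, and FBXL2 at 11 steps in replicate 2 of sgNS. The strongest folds of FBXO33 were not at whole steps in any list. At its matched site, however, the fold of 5.55 in replicate 2 of sgMETTL1 was the value that stood at 2 steps for USP2 in that list.

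Genes of the same pathways under other names were listed too. Of 34 genes of the cullin core, adaptors and the NEDD8 pathway that activates cullins, 15 had a peak and 12 were in all 4 lists, with COPS2 of the COP9 signalosome at 24.9 and 20.0 with sgMETTL1, against 27.8 and 31.2 with sgNS. Of 68 receptors outside the name rule, 39 had a peak and 27 were in all 4 lists. KBTBD2, a CUL3 receptor, was the best-ranked of them, at 39.6 and 41.1 with sgMETTL1, against 62.2 and 53.7 with sgNS. Of 38 deubiquitinases of other families 19 had a peak and 12 were in all 4 lists. OTUD6B of the OTU family ranked above every member by mean percentile, with folds of 227 and 121 with sgMETTL1, against 124 and 134 with sgNS. Of 40 known substrates of cullin ligases 29 had a peak and 25 were in all 4 lists. Limma called 0 genes of each of these lists at an FDR of 5%.

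At an unadjusted p under 0.05, the receptors FEM1B (22.3 and 11.8 with sgMETTL1, against 45.1 and 40.8 with sgNS) and DCAF13 (4.34 and 2.54 with sgMETTL1, against 10.3 and 7.87 with sgNS) and the substrate CDC25A (3.48 and 2.50 with sgMETTL1, against 10.4 and 6.48 with sgNS) were lower with sgMETTL1. The substrate RBL2 was higher (2.71 and 2.78 with sgMETTL1, against 2.23 and 1.52 with sgNS). The adjusted p by limma over all genes was between 0.371 and 0.449 for these 4. Thus 2 of 27 fitted receptors were lower, and of 25 fitted substrates 1 was lower and 1 higher. In each of the other lists 0 of 12 fitted genes passed. Over all genes 4.72% were lower and 5.11% higher at this threshold. Each list held 1 lost gene among its 15, 39, 19 and 29 genes with a peak, namely DCUN1D5, KLHDC2, TNFAIP3 and CCNE2, and none was gained, against 4.63% lost and 1.52% gained over all genes. CCNE2, a cyclin that FBXW7 marks, had no peak with sgMETTL1 and folds of 30.1 and 12.7 with sgNS. Both were coarse folds at whole multiples of the step of their list. A link between its loss and that of FBXW7 was not tested.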

How the data were processed

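RIP-seq was deposited as 4 peak lists, each from 1 IP and its input, with replicates not pooled, per the sample descriptions. STAR and GRCh38 are named per the submitters' processing notes. The peak caller is not given in the sources used here, nor is its cutoff or the STAR version. The fold of a peak is a ratio of IP over input, as deposited by the authors. The p-value of each peak is as deposited by the authors, and its base-10 logarithm was handled as a score because it runs far below the usual range, per the file headers.

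Samples were grouped by their titles. Each gene's strongest fold, and each site's, was ranked within its list among only the genes or sites of all 4 lists. The ranks were turned into normal scores and compared between the guides, 2 lists each, by limma (version 3.58.1, R 4.3.3) (FDR 5%, two-sided). The printed percentiles instead rank among all genes or all peaks of a list, and can differ from the scores in direction. Fits used all 4150 genes or 6003 sites of all 4 lists, and were tested on simulated data. Positions along genes used RefSeq spans of GRCh38.p14 and are 1-based. Peak sequences, exons and UTRs were not analysed here.

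The members, lists and tests were chosen with earlier results of these data known. Named are all CUL genes, the 4 best-ranked genes of each family in all 4 lists, lost and gained members, the 6 genes and 6 sites with the smallest p, the 5 with most peaks, USP6NL, USP39, USP53 and USP54, up to 3 genes per other list, and those said to be chosen after their values were seen. A member gene and a marker are not reported here by name. Alternatives were log2 folds, ranks by p, the replicate block, each list left out, stronger peaks, the mean of peaks, 50% reciprocal overlap and equal numbers of peaks. Python 3.11.15, pandas 2.3.3, numpy 2.4.6, scipy 1.17.1 and matplotlib 3.10.9 were used.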

Additional observations from a re-analysis of the deposited data

How the results depend on the processing

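Limma called 0 genes and 0 sites at an FDR of 5% under every alternative run: log2 folds, ranks by p, stronger peaks, the mean of a gene's peaks, 50% reciprocal overlap, and without each list in turn. With the replicate number as a block it also called 0 genes and 0 sites. The replicate numbers did not pair the lists, with a correlation of replicate deviations between guides of -0.0015 over genes and -0.00089 over sites. The smallest adjusted p of a member fell to 0.104 by genes and 0.137 by sites when ranked by p. Score differences turned in 2 cases, USP32 (0.383) and USP1 (0.569), both when peaks of a gene were averaged. Members lost by presence were 4 with equal numbers of peaks ranked by fold (205 of all genes), 5 ranked by p (200) and 5 among stronger peaks (277). In each case 4 were among the 7, but not always the same 4. FBXO17 and FBXW2 were lost in each case, FBXL2 and USP15 by fold and among stronger peaks, and CUL4A and USP7 by p. FBXW7 was lost in none of them. Without each list in turn, lost members were between 9 and 12 (504 to 647 of all genes), and gained members between 1 and 6 (166 to 333). Lost sites were 11 with equal numbers ranked by p (706 of all sites) or by fold (599). Without each list they were between 25 and 42 (1653 to 2772 of all sites), and gained sites between 3 and 18 (312 to 1165). The cause was not tested, except that leaving out a list eases the rule by construction. The share of receptors in all lists used stayed between 62.3 and 66.0%, and that of USP genes between 56.8 and 64.9%, without each list in turn. These shares were tried after seeing the data. With all 4 lists used, the counts of members at an unadjusted p under 0.05 by limma were small. They ranged from 1 to 4 lower and 2 to 4 higher by genes. By sites they ranged from 0 to 7 lower and 2 to 9 higher, the highest being those ranked by p. The shares over all genes and sites were not worked out for the alternatives. These counts are therefore not a result about the members. With no read counts, the depth that limits each fold is unknown.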
